A study of Mus musculus with 6 samples.

Results

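The 3 caudal-type homeobox genes (*Cdx1*, *Cdx2*, *Cdx4*) and the pair of genes at the 3′ end of the HoxB cluster (*Hoxb1*, *Hoxb2*) were followed in D4 embryoid bodies (EBs). These 5 genes were taken by symbol from the 15266 genes listed, and all of them were present. The rule that took them, caudal-type and early 3′ Hox genes, used names and no values, though earlier results of these data were known when it was set. The lines compared were EVX1-Δfs, which is clone 14 and carries frameshifts in both copies of the *Evx1* homeodomain exon with *Evx1as* left in place, and Del#3, which has lost 2.6 kb that hold the promoter shared by *Evx1* and its antisense RNA. Both lines derive from W9.5 mouse embryonic stem cells, both lack functional EVX1, and no unedited line is in this comparison. EVX1-Δfs is 1 clone, and the number of clones behind Del#3 is not given in the sources used here. The stem cells of both lines were maintained in medium with LIF before differentiation. Both lines were then grown as EBs in serum without LIF for 4 days. Each line has 3 mRNA-seq libraries from differentiations set up on different days. The comparison asks whether losing *Evx1as* and the shared promoter adds to the loss of EVX1.

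CDX proteins are homeodomain transcription factors of the posterior embryo. They are switched on in the primitive streak and tail bud by WNT and FGF signals, activate Hox genes of the trunk and keep the axis growing. Hox genes are read out in the order in which they lie in their clusters: those at the 3′ end, such as *Hoxb1* and *Hoxb2*, start first during gastrulation, respond to retinoic acid and later pattern the hindbrain. CDX2 is also a founding factor of the trophoblast, and CDX1 and CDX2 are the caudal factors of the intestinal epithelium. EBs at this stage model gastrulation, the time at which these genes come on.

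To show the DNA next to the start of these genes, the 250 bases before the RefSeq start are printed for the 3 members in the RefSeq promoter table, *Cdx2*, *Hoxb1* and *Cdx4*. The sequences come from RefSeq (build GRCm38.p6), and each was found exactly once on its chromosome in NCBIM37 (mm9), at chr5:148118826-148119075 on the minus strand for *Cdx2*, chr11:96226822-96227071 on the plus strand for *Hoxb1* and chrX:100516487-100516736 on the plus strand for *Cdx4*. They run 5′ to 3′ along the gene. GENCODE, whose gene positions are given further on, places the starts of *Cdx2* and *Hoxb1* slightly upstream of the RefSeq starts, so the last bases of these stretches lie inside the gene by that annotation. Capitals mark the POU octamer ATGCAAAT, the cyclic AMP response element TGACGTCA and the HOX-PBX motif TGATNNAT, which were picked after the sequences had been seen.
Cdx2: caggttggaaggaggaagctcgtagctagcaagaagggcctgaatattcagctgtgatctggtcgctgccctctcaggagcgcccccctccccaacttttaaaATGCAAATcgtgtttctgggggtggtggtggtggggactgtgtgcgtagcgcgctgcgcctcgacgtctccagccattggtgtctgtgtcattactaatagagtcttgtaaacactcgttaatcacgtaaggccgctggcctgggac
Hoxb1: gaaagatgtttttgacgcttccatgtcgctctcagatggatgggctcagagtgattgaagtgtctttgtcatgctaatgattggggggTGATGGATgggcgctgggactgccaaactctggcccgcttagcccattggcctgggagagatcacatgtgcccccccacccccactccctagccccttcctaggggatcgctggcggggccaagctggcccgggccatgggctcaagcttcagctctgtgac
Cdx4: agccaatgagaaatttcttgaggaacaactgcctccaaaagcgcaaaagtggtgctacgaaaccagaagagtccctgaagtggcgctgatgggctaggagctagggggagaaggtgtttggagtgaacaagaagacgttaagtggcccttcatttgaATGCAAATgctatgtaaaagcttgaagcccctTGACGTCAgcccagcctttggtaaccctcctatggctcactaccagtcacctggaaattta

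The stretches of *Cdx2* and *Cdx4* both held the octamer, which pluripotency factors of the POU family bind, at 147 and 93 bases before the start. Of 32536 RefSeq promoters of the same length, 1.62% held it on either strand. *Cdx4* also held TGACGTCA at 61 bases, found in 1.56% of promoters, and *Hoxb1* held the HOX-PBX motif as TGATGGAT at 162 bases, found in 7.66% in any of its forms. The CDX motif in the form TTTATG and the TCF/LEF motif in the form CTTTGA, searched on both strands, were in none of the 3 stretches. Of the promoters, 10.8% and 13.9% held them. Other forms of these motifs were not searched, so sites of other forms may be present. The CCAAT box, a common promoter motif, was in all 3 stretches on 1 strand or the other, against 33.8% of promoters. These are matches of letters, and no binding was measured.

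On NCBIM37, *Cdx2* lies at chr5:148112381-148118846 on the minus strand, *Cdx4* at chrX:100516737-100525931 on the plus strand, *Hoxb2* at chr11:96212946-96217003 and *Hoxb1* at chr11:96227066-96229570, both on the plus strand and 10063 bp apart. *Cdx1* lies on chromosome 18. *Hoxb2* is overlapped on the opposite strand by *Hoxb3os*, which is not a listed gene, and HTSeq at its standard settings counts the strands apart. Whether that setting fits the library kit is not given in the sources used here, so antisense reads in the *Hoxb2* values cannot be told apart. Values are normalized counts, that is, reads on a gene divided by a size factor of the library, unless another unit is named. The libraries held between 9024579 and 15699124 reads on listed genes. Replicate 1 was the deepest library of each line, with 15699124 reads in EVX1-Δfs and 12231851 in Del#3. No other library passed 9802928 reads, so replicate 1 and depth cannot be told apart. As a check of the labels, *Evx1* had a mean of 3125 ± 512 (SD, n = 3) in EVX1-Δfs and 34.6 ± 3.16 in Del#3, and *Evx1as*, listed as 5730457N03Rik, had 648 ± 59.2 and 24.8 ± 7.68. Both were lower in Del#3 with no overlap (exact permutation, two-sided, p = 0.1, which is as small as 3 libraries against 3 allow).

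*Cdx2* stood apart from the other members in level. Per kilobase of exon and scaled to the reads on listed genes of each library (RPKM), *Cdx2* had a mean of 25.0 ± 6.01 (SD, n = 6 libraries of both lines), with a range from 17.4 to 32.8. *Hoxb2* followed at 1.46 ± 0.615 RPKM and *Hoxb1* at 0.679 ± 0.238 RPKM. *Cdx4* had 0.274 ± 0.361 RPKM and *Cdx1* 0.131 ± 0.113 RPKM. *Cdx2* was therefore the abundant caudal gene of these EBs, with *Hoxb2* and *Hoxb1* at a low level and *Cdx4* and *Cdx1* close to the limit of detection.

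*Cdx2* exceeded *Hoxb2* in 6 of 6 libraries without overlap of their RPKM ranges. *Hoxb2* exceeded *Hoxb1* in 6 of 6 libraries as well, but the ranges overlapped, since the lowest *Hoxb2* value was 0.604 RPKM and the highest *Hoxb1* value 1.07 RPKM. Lower down the order was loose: *Hoxb1* exceeded *Cdx4* in 5 of 6 libraries and *Cdx4* exceeded *Cdx1* in 4 of 6, again with overlap. Among all 30 listed Cdx and Hox genes, *Cdx2* ranked 1, *Hoxb2* 5, *Hoxb1* 6, *Cdx4* 18 and *Cdx1* 25 by mean RPKM. The rank of *Cdx4* rests on Del#3 replicate 3, at 0.987 RPKM. Within EVX1-Δfs its mean was 0.0868 ± 0.0267 RPKM, against 0.117 ± 0.154 for *Cdx1*. Between *Cdx2* and *Hoxb2* lay *Hoxb6* (4.23 ± 2.18 RPKM), *Hoxd1* (3.19) and *Hoxd9* (2.61). By mean normalized count, *Cdx2* lay at percentile 75.5 of all listed genes, *Hoxb2* at 31.3, *Hoxb1* at 19.8, *Cdx4* at 10.1 and *Cdx1* at 2.74.

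**Figure D1:**
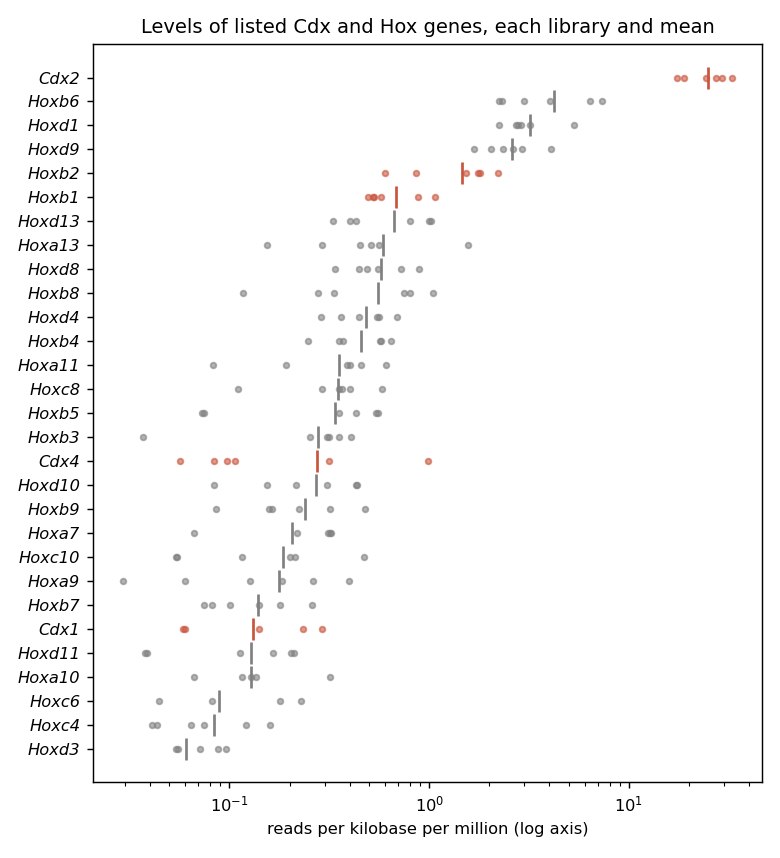
Level of 29 of the 30 listed Cdx and Hox genes in RPKM on a log axis, with 1 point per library and a vertical bar at the mean of 6 libraries; the 5 members are in red, and 6 values at 0, in 5 genes, are not drawn. All *Cdx2* points lie to the right of every Hox gene, the points of *Cdx4* are widely scattered, with its highest library at 0.987 RPKM, and those of *Cdx1* lie among the rarest Hox genes.

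None of the 5 members was called different between the lines, and for each of them the values of the lines overlapped. By limma on log2(normalized count + 1) with Benjamini-Hochberg adjustment, 0 of the 3 members that passed the filter on low counts had an adjusted p under 0.05, against 0.0155% of the 12891 genes tested. Without adjustment the count was also 0, against 1.03%. edgeR's quasi-likelihood test and DESeq2's Wald test on the recovered reads called 0 of these 3 as well. *Cdx1* and *Cdx4* did not pass the filter and are given with a permutation test, and without the filter limma called neither (adjusted p 1.00). The groups failed to overlap in 3.51% of the genes tested. In these bulk samples, a change in the number of cells of a type and a change in RNA per cell cannot be told apart.

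*Cdx2*, the best measured member with 3804 reads, had 643, 450 and 444 normalized counts in the EVX1-Δfs libraries, by replicate number, and 642, 624 and 777 in the Del#3 libraries. The last 2 EVX1-Δfs libraries were the low ones, and the first sat among the Del#3 libraries. The means were 512 ± 113 and 681 ± 84.2 (SD, n = 3 each). On the log2 scale the difference of Del#3 from EVX1-Δfs was 0.42 (SE 0.25, 95% interval -0.13 to 0.98), with an adjusted p of 1.00 by limma and 0.3 for p by the exact permutation test. As a ratio, the interval ran from 0.916 to 1.97, so a level in Del#3 close to that of EVX1-Δfs and one nearly 2 times as high both lay within it.

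*Hoxb2*, a hindbrain patterning gene, had 60.1, 21.1 and 31.9 normalized counts in EVX1-Δfs and 49.4, 67.3 and 76.9 in Del#3. Here too EVX1-Δfs replicate 1 was high and overlapped Del#3, while the other libraries of that line lay below every Del#3 library. The means were 37.7 ± 20.1 and 64.6 ± 14.0. The log2 difference was 0.87 (SE 0.43, 95% interval -0.097 to 1.83), the largest of the 3 tested members, with an adjusted p of 1.00 by limma and p = 0.2 by the exact permutation test. It rested on 328 reads over the 6 libraries, and the ratio interval of 0.935 to 3.55 was wide.

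*Hoxb1*, the neighbour of *Hoxb2* and the most 3′ gene of its cluster, had 25.7, 12.9 and 12.997 normalized counts in EVX1-Δfs and 19.9, 13.9 and 13.9 in Del#3. Replicate 1, the deepest library of each line, was the high library in both lines, and the other 4 libraries lay close together. The means were 17.2 ± 7.39 and 15.9 ± 3.47, and the log2 difference was -0.054 (SE 0.46, 95% interval -1.08 to 0.98, adjusted p 1.00 by limma). The exact permutation test gave p = 1. With 111 reads in all, a ratio anywhere from 0.472 to 1.97 lay in the interval.

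*Cdx4*, which acts in the streak and in early blood formation, had 1.98, 1.17 and 2.36 normalized counts in EVX1-Δfs, from 3, 1 and 2 reads. In Del#3 it had 1.59, 6.97 and 20.3, from 2, 6 and 19 reads. The EVX1-Δfs libraries were uniformly low, and in Del#3 the level ran from as low as these to a single high library, replicate 3. Pooled over libraries, 6 reads were 0.175 RPM in EVX1-Δfs (exact Poisson 95% interval 0.0643 to 0.381) and 27 reads were 0.850 (0.560 to 1.24) in Del#3, where the intervals cover counting error only. The means were 1.84 ± 0.608 and 9.62 ± 9.63, and the exact permutation test gave p = 0.3. The mean difference of log2(normalized count + 1) was 1.45 with all libraries and 0.70 without Del#3 replicate 3.

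*Cdx1* had 5.28, 0 and 1.18 normalized counts in EVX1-Δfs, from 8, 0 and 1 reads, and 2.39, 1.16 and 4.27 in Del#3, from 3, 1 and 4 reads. The values of the lines were interleaved. The means were 2.15 ± 2.77 and 2.61 ± 1.57 (exact permutation test, p = 0.8), and with 17 reads in all no difference could be resolved.

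**Figure D2:**
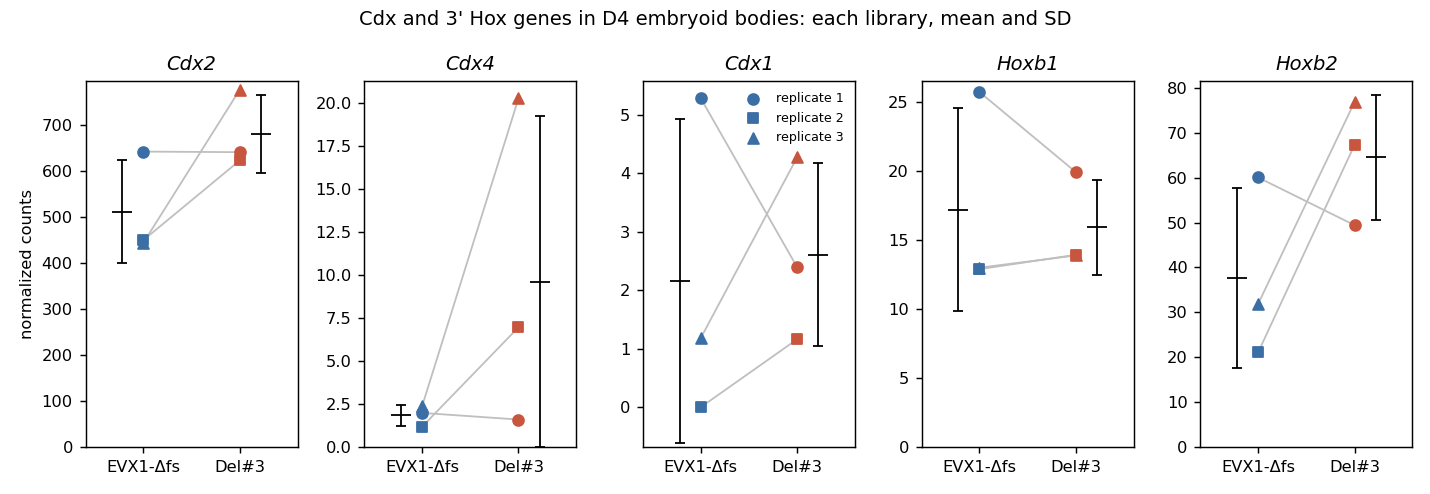
Normalized counts of each member in each library (blue, EVX1-Δfs; red, Del#3), with grey lines between libraries of the same replicate number and black bars at the mean ± SD of 3 libraries; each panel has its own axis. In every panel the values of the lines overlap, and the line of replicate 1 is flat or falls while those of replicates 2 and 3 rise.

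Libraries with the same replicate number were set side by side. The pairing is less sure for replicate 3, since over all genes the deviations of EVX1-Δfs replicate 3 from its line's mean correlated at -0.053 with those of Del#3 replicate 3 and at 0.42 with those of Del#3 replicate 2. In replicate 1, the log2 difference of Del#3 from EVX1-Δfs was -0.0028 for *Cdx2*, -0.28 for *Hoxb2* and -0.35 for *Hoxb1*. In replicate 2 the same genes differed by 0.47, 1.63 and 0.10, and in replicate 3 by 0.81, 1.24 and 0.089. *Cdx4* differed by -0.20, 1.88 and 2.66, and *Cdx1* was likewise lower in Del#3 in replicate 1 and higher in replicates 2 and 3. So in normalized counts all 5 members were higher in Del#3 in replicates 2 and 3 and not in replicate 1, a pattern that 7.73% of the tested genes and 8.04% of the listed genes with a mean under 100 normalized counts had. The pattern was picked after the values had been seen, *Cdx2* leaves it in RPKM (27.4 in EVX1-Δfs and 29.1 in Del#3 in replicate 1), and the 5 genes were read from the same 6 libraries, so it carries no test. Without both libraries of replicate 1, which was left out only after its values had been seen, the log2 difference was 0.64 for *Cdx2* and 1.44 for *Hoxb2*, and neither was called (limma, adjusted p 1.00).

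With the replicate number in the model as a block, which removes what libraries of the same number have in common, the interval of *Cdx2* narrowed to -0.032 to 0.88 and that of *Hoxb2* to -0.043 to 1.77. Neither excluded 0, and no member was called (limma, adjusted p 0.992 for *Cdx2* and *Hoxb2* and 0.997 for *Hoxb1*). The block raised the genes called from 2 to 3, which is 0.0233% of those tested.

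**Figure D3:**
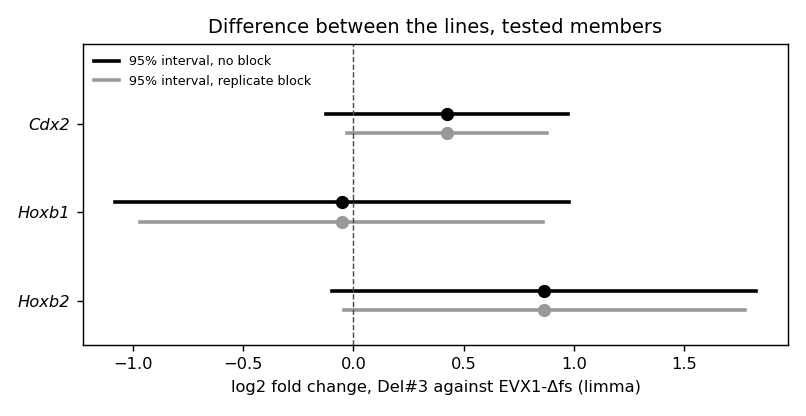
Log2 fold change of Del#3 against EVX1-Δfs for the 3 members that were tested, as a point with its 95% interval from limma on 6 libraries, without (black) and with (grey) the replicate block; the dashed line marks no difference. All intervals include 0, those of *Cdx2* and *Hoxb2* with their lower ends close to it.

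The spread of each member over the 6 libraries was split by line and replicate number, as a description without a test. For *Cdx2*, 52.7% of the sum of squares of log2(normalized count + 1) lay between the lines, and 15.0% between replicate numbers. *Hoxb2* was similar, with 46.4% between the lines and 11.7% between replicate numbers. *Hoxb1* was the opposite, with 0.572% between the lines and 90.4% between replicate numbers. *Cdx4* had 39.4% and 33.2%, and *Cdx1* 7.87% and 61.5%, both from few reads. Pooled over all tested genes, 13.7% lay between the lines and 60.5% between replicate numbers, and the medians over single genes were 6.70% and 64.4%. The share of *Hoxb1* between replicate numbers lay above both the pooled value and the median, and those of *Cdx2* and *Hoxb2* lay below. Each share of a gene rests on 6 values, and the difference between members was not tested. By limma's F-test of the replicate number, 0 of the 3 tested members were called, against 4.24% of all genes. That share was not stable, since 546 genes were called with all libraries and from 194 to 3247 when 1 was left out. The adjusted p was 0.466 for *Hoxb1*, 0.683 for *Cdx2* and 0.699 for *Hoxb2*, and 0 members had an unadjusted p under 0.05, against 27.7% of all genes.

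**Figure D4:**
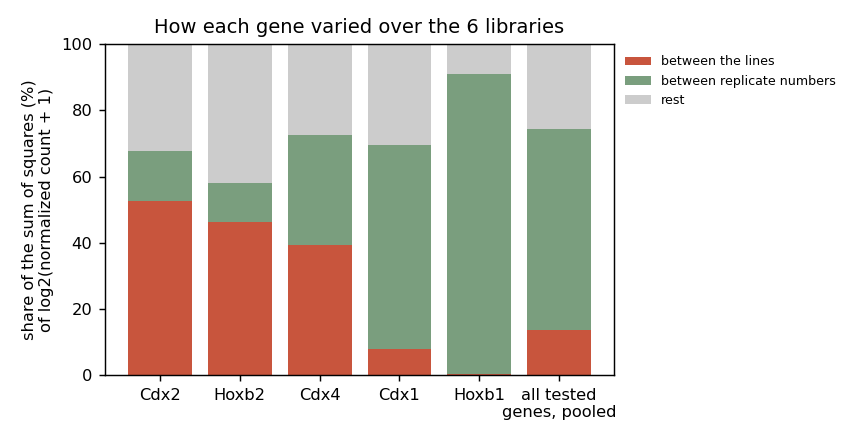
Share of each gene's sum of squares over the 6 libraries, in percent on the log2(normalized count + 1) scale, that lay between the lines (red), between replicate numbers (green) and in the rest (grey), with all tested genes pooled at the right. *Cdx2* and *Hoxb2* have the tallest red parts and *Hoxb1* is almost all green.

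Del#3 replicate 3 was the highest library for *Cdx2*, *Cdx4* and *Hoxb2*, and EVX1-Δfs replicate 1 for *Cdx1* and *Hoxb1*. Of all tested genes, 11.4% were highest in Del#3 replicate 3 and 17.9% in EVX1-Δfs replicate 1. Over the 6 libraries, *Cdx2* and *Hoxb2* moved together most closely among the member pairs with enough reads (Pearson's r 0.92 on log2 values, and 0.85 after the mean of each line was removed). The neighbours *Hoxb1* and *Hoxb2* had r 0.37, and *Cdx2* and *Hoxb1* had 0.41. After the mean of each line was removed these were 0.58 and 0.68. All these values come from the same 6 libraries, which differ in depth and share replicate numbers between the lines, and they describe those libraries only.

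Over the same 6 libraries, and among tested genes with a mean of at least 50 normalized counts, the genes closest to *Cdx2* were *Pkia*, *Tmem68*, *Apcdd1*, *Wdr44* and *2700089E24Rik* (r 0.958 to 0.940). Those closest to *Hoxb2* were *Fancb*, *Fam160a1*, *Eme2*, *Zfp882* and *Tmem251* (r 0.972 to 0.930). For both, 11 of 10518 genes had r over 0.9. *Hoxb1* had 259 such genes of 10519, led by *Socs6*, *1700025G04Rik*, *Eaf1*, *Alyref* and *Foxk2* (r 0.989 to 0.983). The closest to *Cdx4* were *St3gal5*, *Kcnd1*, *Stard8*, *Foxf1* and *Purg* (r 0.959 to 0.938), and to *Cdx1* they were *Zfp277*, *Nqo2*, *Thap6*, *Tmx1* and *Ggps1* (r 0.989 to 0.967), where the members' own values rest on few reads.

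The nearest listed genes on each side of the members were read for levels along the chromosome. *Chic1*, 25884 bp from *Cdx4*, had 31.1 ± 12.0 normalized counts in EVX1-Δfs and 68.5 ± 34.9 in Del#3, a log2 difference of 1.08 (SE 0.47) that was not called (limma, adjusted p 1.00). On the other side of *Cdx4* and 134758 bp from it, *Nap1l2* differed by 0.46 (SE 0.45) on the log2 scale. *Hoxb3*, 4947 bp from *Hoxb2*, had 6.58 ± 4.87 and 11.2 ± 1.39 normalized counts and too few reads to be tested. *Polr1d*, 189444 bp from *Cdx2*, was at 2507 ± 542 and 2196 ± 620. *Flt3*, 23471 bp from *Cdx2* on its other side, was at 4.36 ± 2.87 and 3.64 ± 2.66. *Pdgfrb*, 8951 bp from *Cdx1*, differed by 0.12 on the log2 scale and *Skap1*, 96337 bp from *Hoxb1*, by 0.040. *Camk2a*, on the other side of *Cdx1*, had too few reads to be tested.

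No other Hox gene was called either. Of 25 listed, 12 had enough reads to be tested, and 0 were called in either direction by limma. Their median log2 difference was 0.21, against 0.0022 for all tested genes, and 8 of the 12 were above 0, the highest at 0.84 (*Hoxa13*). This median fell to -0.071 without Del#3 replicate 3 and to -0.085 without Del#3 replicate 1. *Hoxb6*, the highest of these genes per length, had 68.5 ± 18.6 normalized counts in EVX1-Δfs and 115 ± 54.4 in Del#3 (log2 difference 0.64, SE 0.43, adjusted p 1.00 by limma). *Hoxa7*, with 3.02 ± 3.66 and 9.61 ± 0.842, was the single one of the 25 whose Del#3 libraries all lay above those of EVX1-Δfs in normalized counts, which 1.71% of tested genes did. In RPKM, *Hoxd9* did so too, with at most 2.35 in EVX1-Δfs and at least 2.62 in Del#3. Del#3 replicate 3 was the highest library for 11 of the 25, and 12.9% of listed genes with a mean under 100 normalized counts were highest there.

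By cluster, 3 of 6 HoxA genes, 4 of 7 HoxB genes other than the members, 0 of 4 HoxC genes and 5 of 8 HoxD genes had enough reads for the test. The median log2 difference was 0.54 in HoxA, 0.21 in HoxB and 0.0014 in HoxD. Summed over its genes, HoxC ran from 11.7 to 13.2 normalized counts in the EVX1-Δfs libraries and from 19.7 to 23.9 in Del#3. These were a few reads per gene. No single HoxC gene kept the lines apart, and no share over all genes was computed for such sums. HoxA ran from 35.2 to 53.2 and from 31.4 to 101. HoxB without the members ran from 104 to 155 and from 96.4 to 250, and HoxD from 156 to 183 and from 171 to 274. The lines overlapped in HoxA, HoxB and HoxD.

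The partners and inputs of these genes were counted next. All 10 genes of the TALE homeodomain class, which holds the PBX and MEIS partners of HOX proteins on DNA and also the repressor TGIF1, were tested, and 0 were called (median log2 difference 0.090). *Pbx2* (mean 1336), *Pbx3* (673) and *Tgif1* (671) had the highest normalized counts of this list. Of 16 WNT inputs and targets, 0 were called (median 0.10), with *Ctnnb1*, which encodes beta-catenin, *Nkd1* and *Tcf7* the highest. Of 14 retinoic acid genes, 12 were tested and 0 called (median 0.061). *Rxra* and *Rxrb*, the partner receptors, were among the highest in counts, and *Aldh1a2*, the enzyme that makes retinoic acid in mesoderm, was at 10.6 ± 3.49 and 21.4 ± 8.57 normalized counts (log2 difference 0.92, SE 0.50, adjusted p 1.00 by limma).

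Of 18 posterior streak and axial progenitor genes, 17 were tested and 0 called (median -0.11). *T*, the brachyury factor of the streak, had 1160 ± 63.0 and 1108 ± 233 normalized counts, and *Lin28a* (6513), which keeps progenitors undifferentiated, and *Mesp1* (1293), a factor of nascent mesoderm, had the highest means with it. Of 16 Polycomb and trithorax genes, which hold Hox clusters silent or open, 0 were called (median 0.17), with *Ezh2* at 1479 ± 131 and 1564 ± 313 and *Men1* and *Jarid2* next. Of 13 listed hindbrain and somite partners, 9 were tested and 0 called (median 0.049), with *Ephb2*, *Lfng* and *Mesp2* the highest. With 3 libraries per line, 0 calls in these lists do not show that levels were equal.

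Markers of other cell types that could hold the members were read beside them. Of 11 trophoblast markers, where *Cdx2* is also used, 9 were listed, and their sum ran from 2523 to 4465 normalized counts in EVX1-Δfs and from 3141 to 5677 in Del#3. Most of it was *Hand1*, which is also a mesoderm gene (2812 ± 980 and 3958 ± 1358). *Gata3* had a mean of 227, *Tfap2c* 186, *Esrrb* 76.7, *Plac1* 69.9, *Ascl2* 44.9, *Krt7* 41.5 and *Esx1* 19.2. *Elf5*, a defining trophoblast factor, had a mean of 2.49, and *Tpbpa* and *Gcm1* were not among the listed genes. Of 7 intestinal markers only *Vil1* and *Sis* were listed, summing to 31.7 to 51.6 in EVX1-Δfs and 27.8 to 73.3 in Del#3. Of 6 neural and hindbrain markers, 4 were listed, with sums of 45.7 to 50.8 and 41.8 to 83.3. Streak markers were all listed and 1 of the 8, *Evx1* itself, was called. Among 7 epiblast markers, all listed, *Zfp42* was at 380 ± 66.5 in EVX1-Δfs and 219 ± 59.9 in Del#3 (log2 difference -0.82, adjusted p 1.00 by limma). The part of any of these cell types in the level of a member was not tested.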

How the data were processed

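Poly(A)-selected RNA of D4 EBs was sequenced on the Ion Proton. The authors mapped reads to mm9 by TopHat2 and TMAP, and HTSeq gave the counts per gene (versions not given in the sources used here). The signal values they deposited are counts divided by a size factor of the library, 1 value per gene and library. Within each library, 100% of values were whole multiples of 1 step (tolerance 0.01), which gave the reads back. 1 symbol occurs more than once.

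The lines were compared by limma (version 3.58.1, R 4.3.3), its variance trend switched on, from log2(normalized count + 1), over the 12891 of 15266 genes that passed filterByExpr of edgeR (version 4.0.16, minimum count 10), with Benjamini-Hochberg adjustment and a threshold of 0.05. Fold changes on this scale understate those of low genes. Single genes also had two-sided exact permutation tests. RPKM used the summed exon length of GENCODE on NCBIM37, and RPM the reads on listed genes. The annotation behind the counts is not given in the sources used here, so these lengths, and the RPKM levels and ranks that rest on them, may not match the features counted. The fit was tested on simulated data.

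Alternatives were pseudocounts of 0.1 and 5, either no low-count filter or 10 reads required in each library, TMM, total-read or DESeq2 scaling, edgeR's quasi-likelihood and DESeq2's (version 1.42.0) Wald tests on the recovered reads, the replicate block, and leaving out each library. Leaving out both libraries of a replicate number, and each library in the replicate-number test, were added after the data were seen. On the recovered reads, edgeR called 2 genes and DESeq2 3.

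The submitters' design text gives each side-by-side differentiation its own day, so the replicate number was taken to mark the day. Replicate 1 was also the deepest library of each line, so that day and depth cannot be told apart. Deviations from the line means of same-numbered libraries correlated at 0.74, 0.32 and -0.053. p-values measure the spread between differentiations within each line, which is 1 clone for EVX1-Δfs. They do not measure the spread between clones of a line.

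Genes named are the 5 members, *Evx1* and *Evx1as*, the 5 tested genes most correlated with each member, the nearest listed neighbours, and in each list the 3 highest genes and those under an unadjusted p of 0.05. *Hoxa7*, *Hoxa13*, *Hoxd1*, *Hoxd9*, *Aldh1a2*, *Elf5*, *Hand1* and other genes outside this rule were named after their values were seen. Some genes under this rule are not reported here. The members and lists were chosen with earlier results of these data known.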

Additional observations from a re-analysis of the deposited data

How the results depend on the processing

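The comparison of the lines called 2 genes and between 2 and 3 under 20 of its 21 alternatives, the exception being DESeq2 with the replicate block, at 9. Leaving out any 1 library gave 2. The log2 difference of *Cdx2* stayed between 0.23 and 0.64 and that of *Hoxb2* between 0.48 and 1.44, above 0 and uncalled in all 21, with ranges of 0.33 to 0.60 and 0.53 to 1.26 when 1 library was left out. The paired fit in limma, with the replicate number as a block, gave 0.42 for *Cdx2*, 0.87 for *Hoxb2* and 3 genes called, and changed no member's call. *Hoxb1* has no stable sign. It was -0.054 with all libraries, 0.26 without EVX1-Δfs replicate 1, 0.027 without Del#3 replicate 2, 0.029 without Del#3 replicate 3 and 0.097 without both libraries of replicate 1, and ran from -0.22 to 0.26 when 1 library was left out. *Cdx4* ran from 0.70 to 2.27 and *Cdx1* from -0.13 to 1.44 over 15 alternatives. The replicate number called 546 genes, 347 with TMM factors, and from 194 to 3247 when 1 library was left out. No member was called by it. The cause of these moves was not tested. Depth limits *Cdx4* and *Cdx1* most, at 33 and 17 reads in all.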
